A study of Mus musculus with 12 samples.

Results

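Interferon-stimulated genes are genes that cells switch on when interferons bind to their receptors. The genes described here are 9 members of this group, Ifit1, Ifit3, Isg15, Irf7, Oasl2, Bst2, Ifi27, Usp18 and Rsad2. They were chosen as a list of gene symbols, with earlier results of these data known, and all 9 were found among the 33024 gene symbols of the count table. Bulk RNA of the brain cortex of wildtype C57BL/6 mice was sequenced in 12 libraries, 1 per mouse, of which 7 came from the Control group and 5 from the EtOH group. From 30 days of age, EtOH mice could choose between water and 20% (v/v) ethanol during the dark cycle, for 12 h per session and 35 sessions, while Control mice, labelled Vehicle, had water only. Both groups then went without alcohol for 14 days and were tested for behaviour before the brain was taken after perfusion with saline. The question was whether these genes were still at a different level in the cortex of alcohol-administered mice at that time.

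Type I interferons are secreted when a cell senses foreign or misplaced nucleic acid, for example viral RNA, or DNA that has leaked from the nucleus or the mitochondria into the cytosol. Binding to the receptor IFNAR activates the kinases JAK1 and TYK2, and transcription factors, among them STAT2 and IRF9, then enter the nucleus and bind the interferon-stimulated response element in the promoters of target genes. In the brain, microglia, border macrophages, endothelial cells, astrocytes and neurons can all respond to interferon, and interferon-stimulated genes are widely read as a sign of senescence-associated inflammation or of ageing microglia.

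The response element is built around repeats of the letters GAAA, and the promoters of these genes are shown because these letters are what the members are known to share. The pattern searched was GAAANNGAAA, on both strands (its reverse complement is TTTCNNTTTC), in RefSeq promoters of 300 bases, 250 before and 50 after the start of the gene (build GRCm38.p6). Promoters were given for 7 of the 9 genes, not for Ifi27 and Usp18. A match was found in 5 of the 7, compared with 1131 of all 32851 promoters, or 3.44%. Each line gives 30 bases around the matches, in the direction of the gene's own strand, with the matched letters in capitals and with positions in GRCm39, where each promoter was placed by an exact match.
Ifit1 (chr19:34618175-34618204, plus strand): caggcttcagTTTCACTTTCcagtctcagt
Ifit1 (chr19:34618194-34618223, plus strand): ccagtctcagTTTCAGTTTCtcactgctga
Ifit3 (chr19:34560763-34560792, plus strand): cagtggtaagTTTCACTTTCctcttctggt
Ifit3 (chr19:34560797-34560826, plus strand): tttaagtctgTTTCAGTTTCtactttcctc
Isg15 (chr4:156285328-156285357, minus strand): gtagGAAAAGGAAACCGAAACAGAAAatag
Bst2 (chr8:71990224-71990253, minus strand): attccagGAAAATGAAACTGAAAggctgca
Rsad2 (chr12:26506552-26506581, minus strand): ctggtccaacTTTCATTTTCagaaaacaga
In Isg15, 3 overlapping matches form 1 continuous run, and in Bst2 2 overlapping matches do so. Ifit1 and Ifit3 each carried 2 separate matches, read as the reverse complement like the single match of Rsad2. The promoters of Irf7 and Oasl2 held no match, which says only that these letters are not in this window.

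All 9 genes were detected in every mouse, at low levels. Levels are given as counts per 1000000 counts of a library (CPM), after scaling of the libraries. Ifi27 was the most abundant, at 17.8 ± 2.02 CPM in Control mice (SD, n = 7), and Usp18 the least, at 0.776 ± 0.247 CPM. Of all 16059 genes tested, 47.9% had a lower level than Ifi27, 29.4% a lower level than Ifit3 and 9.035% a lower level than Usp18. The genes rested on 14 to 780 counts per mouse, from 14 to 37 for Usp18 and from 439 to 780 for Ifi27. Counts of some low genes were often even, Irf7 in 12 of 12 mice, though Usp18, the lowest of the 9, in 4. If both ends of a fragment were counted, which was not tested, the number of independent fragments is lower than these counts and the counting error larger than they imply.

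Levels were also divided by exon length, which here counts every base that is exon in any annotated transcript of the gene. This length exceeded that of the longest transcript for Oasl2 (6374 against 3123 bases), Ifi27 (4461 against 2531 bases) and Bst2 (1214 against 908 bases), among others. The order below may change with another length, which was not tried. Divided in this way, the order of levels in Control mice was led by Ifi27, at 4.00 ± 0.452 CPM per kb, followed by Ifit3, at 2.18 ± 0.458 CPM per kb. These were further apart than their SDs. Isg15 (1.64 ± 0.182 CPM per kb) and Bst2 (1.43 ± 0.355 CPM per kb) came next and lay within 1 SD of Bst2 of each other, as did Oasl2 (0.624 ± 0.154 CPM per kb) and Irf7 (0.546 ± 0.176 CPM per kb). The lowest levels per length were those of Rsad2, Ifit1 and Usp18, at 0.291 ± 0.0778, 0.269 ± 0.0623 and 0.239 ± 0.076 CPM per kb, and these neighbours did not differ beyond their spread. The EtOH mice had Ifi27 and Ifit3 at the top as well, at 3.60 ± 0.351 and 1.63 ± 0.426 CPM per kb, with Bst2 (1.59 ± 0.226 CPM per kb) and Isg15 (1.28 ± 0.365 CPM per kb) next, and Ifit3, Bst2 and Isg15 did not differ beyond their spread.

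None of the 9 genes was called different between the groups. A gene was called when the quasi-likelihood test of edgeR gave a p under 0.05 after Benjamini-Hochberg adjustment over all 16059 genes and the log2 fold change (EtOH over Control) was above 0.5 in size. The count of members was 0 higher and 0 lower, whereas 8.29% of all genes tested were called, 4.20% higher and 4.09% lower. With the adjusted p alone, 0 of the 9 passed either, against 23.7% of all genes (12.1% higher and 11.6% lower), and DESeq2 and limma voom called 0 as well. At an unadjusted p under 0.05 there was 1 gene, Ifit3, of 9, compared with 5866 of all 16059. The log2 fold change was below 0 for 8 genes and above 0 for 1, Bst2, with a median of -0.16, while that of all genes tested was 7.21e-05. In no member was every EtOH mouse below every Control mouse or above it, which occurred in 4.96% and 4.84% of all genes.

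**Figure D1:**
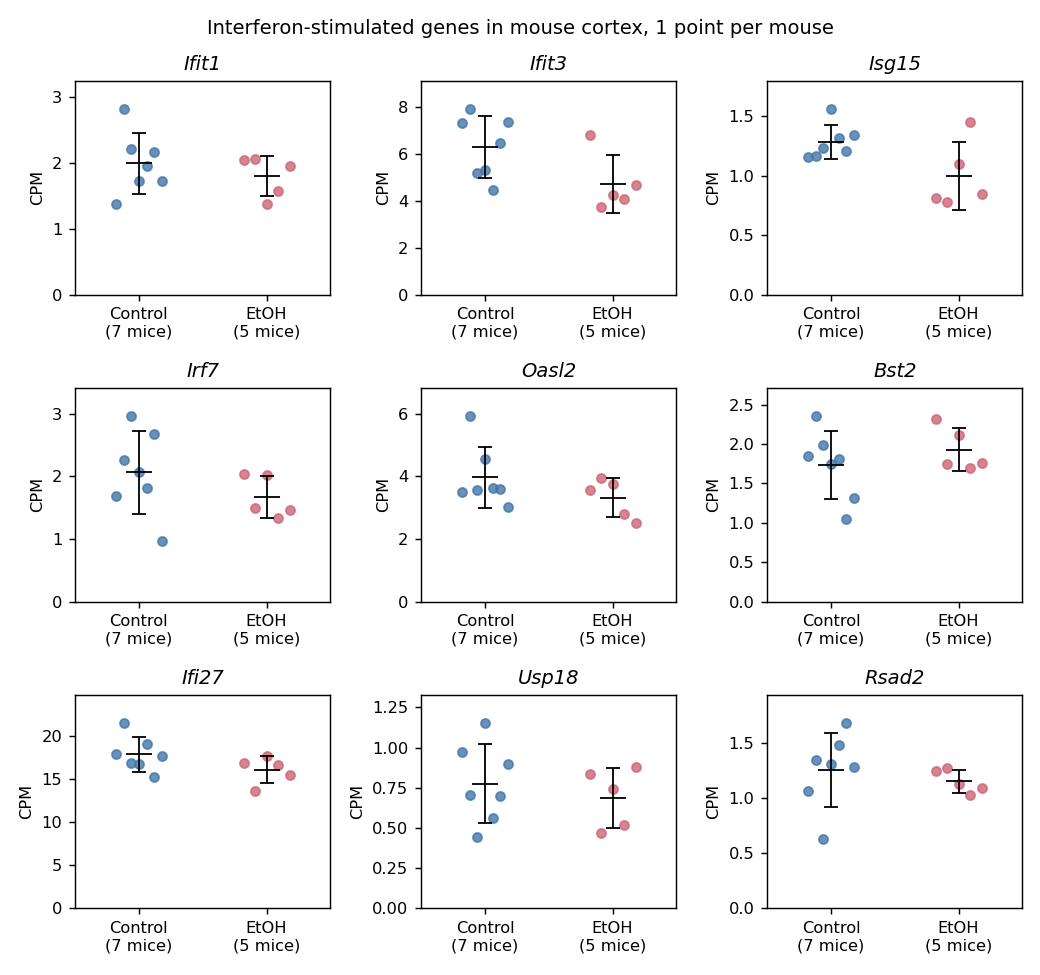
Level of each of the 9 genes in CPM (linear axis from 0), with 1 point per mouse, 7 Control and 5 EtOH, and the mean and SD as bars. The groups overlap in every panel; the lower EtOH values are clearest for Ifit3, where 3 of 5 EtOH mice lie below all Control mice, and Isg15, where 4 of 5 do.

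The IFIT proteins bind viral RNA that lacks the host's cap marks and block its translation. Ifit3 (chr19:34560899-34566443, plus strand) showed the lowest edgeR p of the 9. In Control mice it ranged from 4.45 to 7.90 CPM with a median of 6.47 CPM, and the EtOH mice had 6.81, 3.73, 4.23, 4.07 and 4.68 CPM. EtOH mice 2, 3 and 4 were below every Control mouse, whereas EtOH mouse 1 was above the Control median. The log2 fold change was -0.41 (SE 0.17, 95% confidence interval -0.76 to -0.05) with an adjusted p of 0.0872 (edgeR) and, in an exact two-sided permutation test of the single gene, p = 0.0556. The call depended on 1 mouse: without EtOH mouse 1 the log2 fold change was -0.58 and the adjusted p 0.0167 (edgeR), which is past the threshold, and without Control mouse 5 the adjusted p was 0.0306 at a log2 fold change of -0.49. Of the 100-base stretches of the Ifit3 transcript, 19.0% also occur in its neighbouring copy Ifit3b, so that reads of these genes could be split by the counting. Ifit3b itself measured 3.20 ± 0.905 CPM in Control and 2.32 ± 0.586 CPM in EtOH mice (log2 fold change -0.45, SE 0.21, adjusted p 0.125, edgeR).

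Ifit1 (chr19:34618271-34632174, plus strand), the founding member of the family, measured 2.00 ± 0.462 CPM in Control (n = 7) and 1.80 ± 0.307 CPM in EtOH mice (n = 5). The Control mice spanned 1.38 to 2.82 CPM and the EtOH mice 1.37 to 2.05 CPM, so that the EtOH range lay almost wholly within that of the controls. This gave a log2 fold change of -0.15 (95% confidence interval -0.54 to 0.24, adjusted p 0.592, edgeR), which was -0.05 without Control mouse 2 and -0.07 without EtOH mouse 3. It shares 1.1% of its 100-base stretches with Ifit1bl2.

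Oasl2 (chr5:115034997-115050295, plus strand), a protein of the oligoadenylate synthetase family with ubiquitin-like domains, ranged from 3.01 to 5.94 CPM in Control mice (median 3.60 CPM). The EtOH mice had 3.57, 3.95, 3.76, 2.79 and 2.52 CPM. The last of these, EtOH mice 4 and 5, were below every Control mouse, and the others lay among the controls. The log2 fold change was -0.26 (95% confidence interval -0.62 to 0.10, adjusted p 0.282, edgeR), and it was -0.14 without Control mouse 2, the highest of the 12.

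Rsad2 (chr12:26492745-26506451, minus strand) encodes viperin, which makes a nucleotide that stops viral RNA synthesis. The Control mice varied from 0.631 to 1.69 CPM, while the EtOH mice lay close together at 1.03 to 1.28 CPM, within the Control range. Its coefficient of variation was 26.8% in Control and 8.98% in EtOH mice. The counting error of a single EtOH mouse (34 to 54 counts) was 0.170 to 0.199 CPM, more than the SD of the EtOH mice, 0.104 CPM. The narrow EtOH range therefore does not show that these mice were more uniform. On the log2 scale the means differed by -0.12 (95% confidence interval -0.58 to 0.33, adjusted p 0.716, edgeR), by -0.24 without Control mouse 3 and by -0.04 without Control mouse 6.

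Bst2 (chr8:71986895-71990114, minus strand) encodes tetherin, a membrane protein that holds budding virus particles at the cell surface. It was the only member with a higher mean in EtOH mice, at 1.93 ± 0.275 CPM (n = 5) against 1.73 ± 0.431 CPM (n = 7). EtOH mice spanned 1.70 to 2.32 CPM, inside the Control range of 1.05 to 2.36 CPM. Bst2 had a log2 fold change of 0.16 (95% confidence interval -0.24 to 0.56, adjusted p 0.583, edgeR), and it was 0.07 without Control mouse 6, 0.08 without EtOH mouse 1 and 0.25 without Control mouse 2.

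Isg15 is a ubiquitin-like protein that is attached to other proteins during the interferon response, and Usp18 removes it and also blocks the interferon receptor. Isg15 (chr4:156283883-156285303, minus strand) ranged from 1.16 to 1.56 CPM in Control mice with a median of 1.23 CPM, and the EtOH mice had 0.811, 0.778, 1.10, 1.46 and 0.851 CPM. EtOH mice 1, 2, 3 and 5 were below every Control mouse, and EtOH mouse 4 was above 6 of the 7. The log2 fold change was -0.36 (SE 0.20, 95% confidence interval -0.79 to 0.06). The gene missed the threshold in edgeR, at an unadjusted p of 0.0857 and an adjusted p of 0.198, and the exact permutation test of this gene alone gave an unadjusted p of 0.0379. In the exact permutation tests of the 7 members other than Ifit3 and Isg15, unadjusted p ran from 0.138 to 0.775. An opposite-strand gene, Gm46878, overlaps 31.1% of the Isg15 exon bases, and without knowledge of the strand setting reads there cannot be told apart.

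Usp18 (chr6:121222848-121247877, plus strand) measured 0.776 ± 0.247 CPM in Control and 0.689 ± 0.188 CPM in EtOH mice. The EtOH mice, at 0.467 to 0.882 CPM, all lay within the Control range of 0.442 to 1.16 CPM. Its log2 fold change was -0.16, with the widest interval of the 9, -0.73 to 0.41 (adjusted p 0.705, edgeR). It was -0.04 without Control mouse 4 and -0.26 without EtOH mouse 5.

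Irf7 (chr7:140842619-140846398, minus strand) is the transcription factor that amplifies interferon production once the first interferon has been made. It varied most among mice, by 3.08-fold between the lowest and the highest of the 12. Control mice ranged from 0.962 to 2.97 CPM (median 2.06 CPM) and the EtOH mice had 2.04, 1.49, 2.03, 1.34 and 1.46 CPM. Both the lowest and the highest mouse were controls, and all EtOH mice lay between them. Irf7 had a log2 fold change of -0.30 (95% confidence interval -0.78 to 0.19, adjusted p 0.373, edgeR), which was -0.42 without Control mouse 7 and -0.19 without Control mouse 3.

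Ifi27 (chr12:103392254-103407799, plus strand), a small membrane protein of mitochondria and the nuclear envelope, was the least variable member over the 12 mice, with a ratio of 1.58 between the highest and the lowest. The Control mice ranged from 15.2 to 21.5 CPM with a median of 17.6 CPM, and the EtOH mice had 16.9, 13.7, 17.7, 16.6 and 15.5 CPM. EtOH mouse 2 alone was below all controls. For Ifi27 the log2 fold change was -0.15, with the narrowest interval of the 9, -0.33 to 0.03 (adjusted p 0.224, edgeR), and it was -0.10 without Control mouse 2.

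The intervals show what size of difference these libraries could still hold. The upper bound was below a log2 fold change of 0.5 for 8 of the 9 genes, the exception being Bst2 at 0.56. The lower bound was below -0.5 for 7 genes and above it for Bst2 and Ifi27. For those 7 genes a decrease of the size used for a call therefore lies within the interval.

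**Figure D2:**
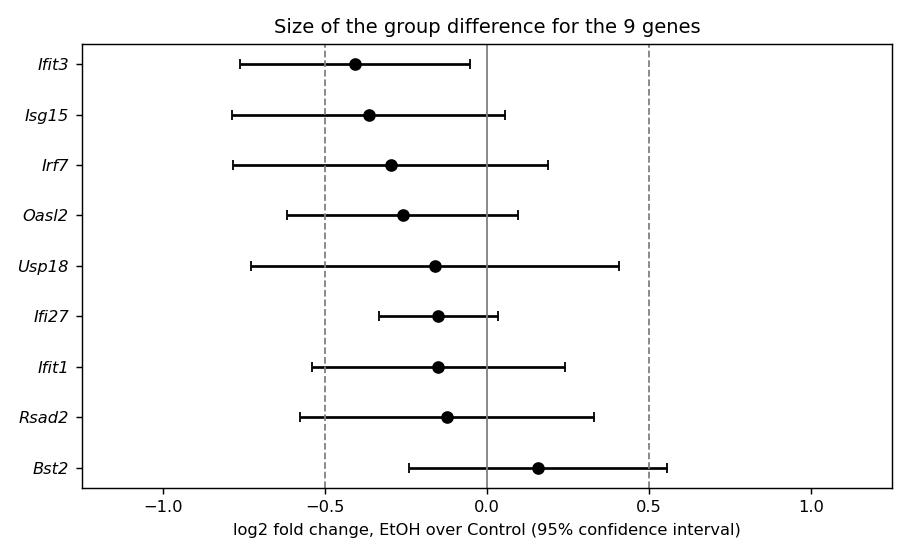
Log2 fold change (EtOH over Control, 7 and 5 mice) of the 9 genes as points, with the 95% confidence interval from edgeR as bars and dashed lines at the fold change used for a call. The intervals of 8 genes cross 0, that of Ifit3 runs from -0.76 to -0.05, and only that of Bst2 reaches above 0.5.

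The highest of the 12 values was in a Control mouse for all 9 genes. Control mouse 2 was highest for 5 of them, Ifit1, Ifit3, Oasl2, Bst2 and Ifi27, with an average of 0.26 log2 units above its group mean over the 9 genes. The same mouse had the highest summed level of the 12 for the other interferon-stimulated genes described below (187 CPM). It was also highest for markers of microglia (376 CPM), border macrophages (12.6 CPM), mural cells (220 CPM) and striatum (2370 CPM). The part of these in its values was not tested. Without it, 8 genes still had a log2 fold change below 0, from -0.05 for Ifit1 to -0.39 for Isg15. Among EtOH mice, mouse 1 was above its group mean for 8 of the 9 genes (0.19 log2 units on average) and EtOH mouse 2 was the lowest of all 12 for Ifit3, Isg15 and Ifi27.

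**Figure D3:**
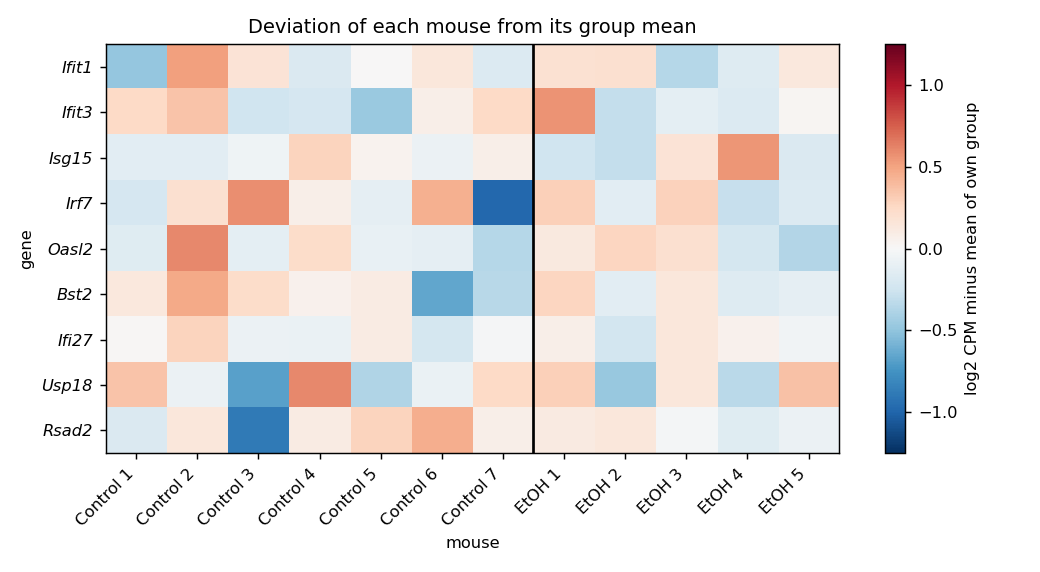
Difference of each mouse from the mean of its own group in log2 CPM (colour scale, red above and blue below the mean), for the 9 genes in rows and the 12 mice in columns, with a line between Control and EtOH mice. Control 2 is red for most genes and EtOH 1 for 8 of 9, while other mice are high for some genes and low for others.

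The levels of the members were only weakly related from mouse to mouse. After subtraction of group means, the 36 pairs of members had a median Pearson's r of 0.11 over the 12 mice, from -0.49 (Ifit1 and Isg15) to 0.70 (Bst2 and Ifi27), and 3 pairs were over 0.5. These are descriptions over libraries that share their depth and tissue, at counts where sampling noise is large. The 8 genes whose group-centred profile over the 12 mice was most like the mean profile of the members were Tafa2, Med22, Mesd, Utp6, Micu2, Hacd4, Pdgfc and Meis2, with r between 0.86 and 0.87, chosen as the highest of 16050 genes. By rank the likeness was uneven, with Spearman's rho from 0.38 for Micu2 to 0.94 for Hacd4. None of the 8 genes is in the lists of interferon genes used here. Among 40 other interferon-stimulated genes the median r with the same profile was 0.26, that of all genes was -0.00110, and r was over 0.5 in 4 of the 40 (10%: Oas1b, Ifi27l2a, Ddx60 and Ifitm3) and in 7.96% of all genes. At the other end were Herc6 (r = -0.75) and Xaf1 (r = -0.40).

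In the wider set of interferon-stimulated genes the share of genes that passed was near that of all genes or below it. Of 50 listed genes 40 were expressed enough to be tested, and 0 were called higher and 2 lower (background 4.20% and 4.09%), Slfn2 and Ifitm1. By adjusted p alone, 0 were higher and 4 lower (background 12.1% and 11.6%), and the median log2 fold change of the 40 was -0.08. Slfn2, a Schlafen protein that keeps T cells and monocytes quiescent, measured 1.88 to 3.00 CPM in Control mice (median 2.31 CPM) and 1.21, 1.24, 0.835, 0.910 and 0.973 CPM in EtOH mice. Every EtOH mouse was below every Control mouse (background 4.96%), and the log2 fold change was -1.15 (SE 0.17, adjusted p 0.000134, edgeR). It was called in every alternative fit, with log2 fold changes from -1.23 to -1.08.

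Ifitm1, a membrane protein that hinders virus entry, measured 2.26 ± 0.734 CPM in Control and 1.20 ± 0.493 CPM in EtOH mice (log2 fold change -0.92, SE 0.27, adjusted p 0.0186, edgeR). Of the EtOH mice, 4 of 5 were below all controls, and the call was lost without EtOH mouse 1 (log2 fold change -0.84, adjusted p 0.0551). Below the fold change minimum, Cmpk2, a mitochondrial nucleotide kinase next to Rsad2 in the genome, was lower in all EtOH mice than in any control (background 4.96%). Its mean was 21.5 against 24.9 CPM (log2 fold change -0.21, adjusted p 0.00895, edgeR). Herc6, the ligase that attaches Isg15 in mice, went from 13.7 to 9.72 CPM (log2 fold change -0.50, adjusted p 0.0132, edgeR), just under the minimum, and it passed the minimum in limma voom and without any of Control mice 2, 4 and 5 and EtOH mice 2 and 5.

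Of the ligands, receptors and signalling proteins of the pathway, 14 of 21 genes were tested and none was called (edgeR 0, background 8.29%, with 5 at an unadjusted p under 0.05, against 5866 of all 16059 genes; DESeq2 and limma voom 0). The 6 interferon ligands listed, Ifnb1, Ifna2, Ifna4, Ifnk, Ifne and Ifng, had 0 counts in all 12 mice. A count of 0 allows up to 3 counts, or 0.0695 to 0.0962 CPM depending on the mouse, and for Ifna2 and Ifna4 reads shared with other genes of their family may not have been counted. By the mean over all 12 mice, the most abundant genes of the list were Jak1, the kinase shared by the interferon receptors, at 189 and 194 CPM in Control and EtOH mice, Pias1, an inhibitor of signalling, at 68.8 and 72.2 CPM, and Ifngr2, a chain of the interferon gamma receptor, at 48.1 and 53.4 CPM. Their log2 fold changes were 0.04, 0.07 and 0.15, none past the threshold. Genes that passed by adjusted p alone (background 12.1% higher and 11.6% lower) were Ifnar1 (log2 fold change 0.17, adjusted p 0.0345, edgeR) and Tyk2 (0.23, adjusted p 0.0431), both higher, and Jak2 (-0.27, adjusted p 0.0171), lower. Jak2 passed whichever mouse was left out, whereas Ifnar1 missed without any of Control mice 2, 3 and 4 and EtOH mice 1 and 4 (adjusted p up to 0.0988, edgeR) and Tyk2 without any of Control mice 1, 2, 3 and 4 and EtOH mice 1, 2, 4 and 5 (up to 0.108). The transcription factor genes Stat2 and Irf9 did not pass, with log2 fold changes of 0.03 each.

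Of the sensors of nucleic acid and their adaptors, 18 of 19 genes in the table were tested and none was called (edgeR 0, background 8.29%, with 6 at an unadjusted p under 0.05, against 5866 of all 16059 genes; DESeq2 and limma voom 0). Cgas, the sensor of cytosolic DNA, stood at 1.51 and 1.55 CPM in Control and EtOH mice (log2 fold change 0.04), and its adaptor Sting1 at 3.79 and 3.20 CPM (log2 fold change -0.24, adjusted p 0.171, edgeR). By adjusted p alone, 3 of the 18 were higher and 2 lower (background 12.1% and 11.6%). Adar, which edits double-stranded RNA and hides it from the sensors, was higher (154 against 189 CPM, log2 fold change 0.30, adjusted p 0.0247, edgeR), as were the RNA sensor Tlr3 (0.28, adjusted p 0.0105) and the adaptor Mavs (0.29, adjusted p 0.0456). The adaptors of Toll-like receptors Myd88 (-0.46, adjusted p 0.00496, edgeR) and Ticam1 (-0.34, adjusted p 0.0306) were lower. Tlr3 and Myd88 passed whichever mouse was left out, and Myd88 also passed the fold change minimum without EtOH mouse 1 (-0.53). Adar (adjusted p 0.0655, edgeR), Mavs (0.117) and Ticam1 (0.0926) missed without EtOH mouse 1. Leaving out other mice had this effect too, Control mouse 3 and EtOH mouse 5 for each of the 3 genes, Control mice 1 and 4 for Mavs and Ticam1 (without Control mouse 4, Adar lay at the threshold), and Control mice 2 and 7 and EtOH mouse 3 for Mavs. Of the other abundant genes of the list, the kinase Tbk1 (42.0 and 45.3 CPM) and the transcription factor Irf3 (21.2 and 18.8 CPM) did not pass. Trex1, the exonuclease that clears cytosolic DNA, is listed at 0 in every mouse, and its exons lie wholly within exons of Atrip and Shisa5.

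**Figure D4:**
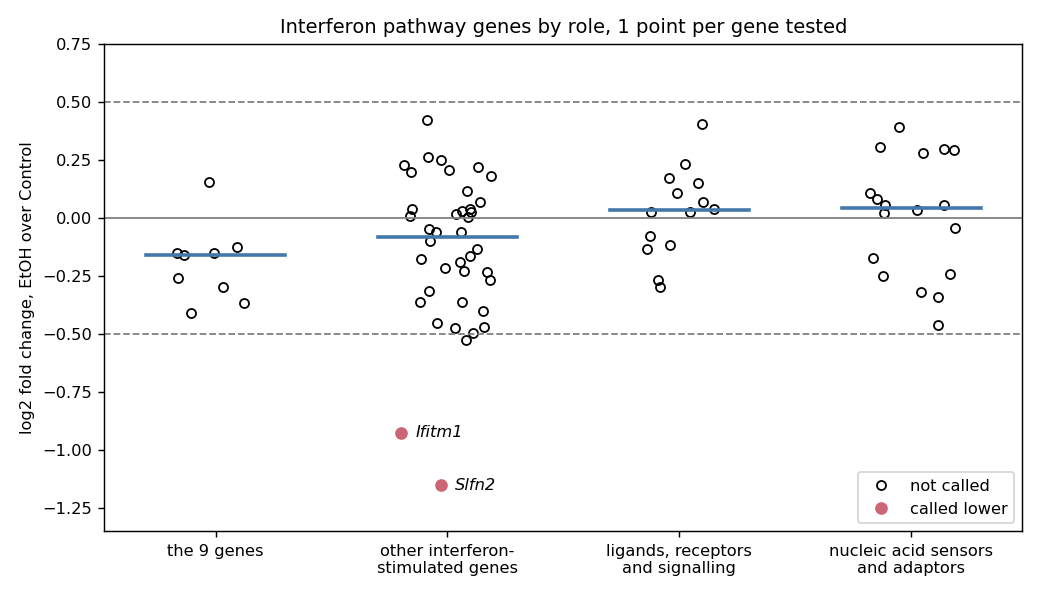
Log2 fold change (EtOH over Control) of every tested gene of the pathway, grouped by role, with 1 point per gene, a bar at the median of each group and dashed lines at the fold change used for a call. The only called genes are Slfn2 (-1.15) and Ifitm1 (-0.92); the medians of the 4 groups run from -0.16 for the 9 genes to 0.05 for the sensors.

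Markers of cell types that can carry interferon-stimulated genes differed between the groups to unequal extents and in both directions. For microglia, 0 of 10 markers were called by edgeR (background 8.29%; 7 of the 10 had an unadjusted p under 0.05), all 10 had a log2 fold change below 0 with a median of -0.26, and 6 were lower by adjusted p alone (background 11.6%). Their summed level was 337 to 376 CPM in Control and 297 to 321 CPM in EtOH mice, ranges that did not overlap, and no marker was at 0. Of 6 border macrophage markers 5 were tested and 2 called lower (background 4.09%), Cd163 (3.02 against 1.28 CPM) and F13a1 (2.14 against 1.14 CPM), while the log2 fold changes of Mrc1 (-0.42), Lyve1 (-0.11) and Pf4 (0.37) did not pass, with sums of 7.22 to 12.6 CPM in Control and 3.02 to 10.4 CPM in EtOH mice. Of 10 endothelial markers 1 was called, Ly6c1 (35.2 against 22.6 CPM), with sums of 294 to 332 and 285 to 308 CPM. Of 6 astrocyte markers 1 was called higher (background 4.20%), Gfap (88.3 against 150 CPM, log2 fold change 0.77), and 3 were higher by adjusted p alone (background 12.1%), with sums of 824 to 924 CPM in Control and 995 to 1106 CPM in EtOH mice, which did not overlap. The 6 mural cell markers had log2 fold changes between -0.10 and 0.12, and their sums were 193 to 220 and 193 to 213 CPM. The 9 interferon-stimulated genes summed to 34.8 to 46.0 CPM in Control and 29.2 to 36.6 CPM in EtOH mice. The part of these markers in the members' levels was not tested, and in bulk tissue fewer cells of a type and less RNA per cell cannot be told apart.

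**Figure D5:**
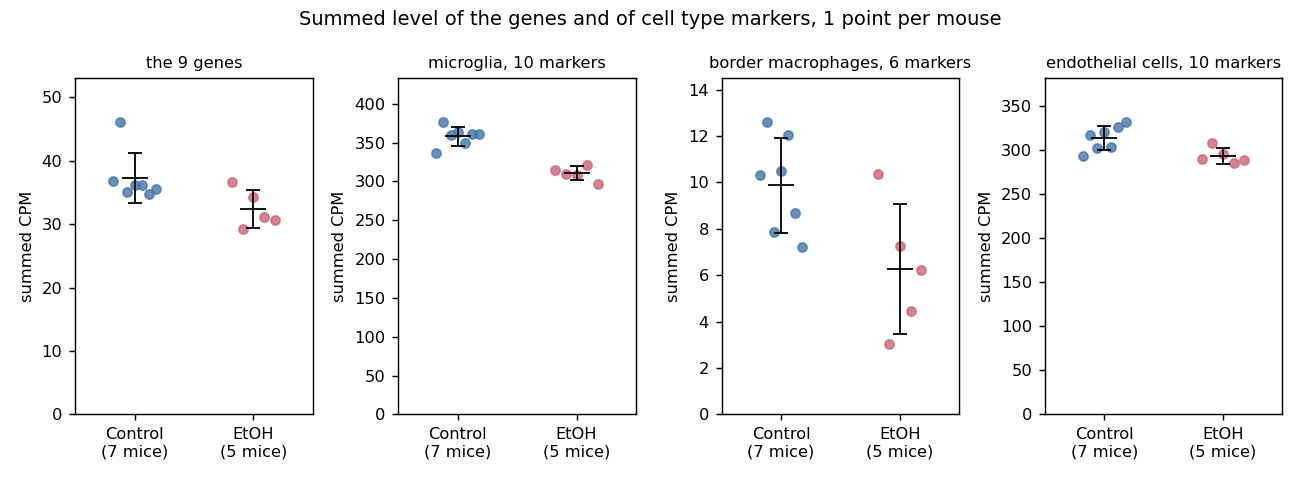
Summed level in CPM (linear axes from 0) of the 9 genes and of the markers of microglia, border macrophages and endothelial cells, with 1 point per mouse and the mean and SD as bars. The microglia sums of the 5 EtOH mice (297 to 321 CPM) all lie below those of the 7 Control mice (337 to 376 CPM), while the sums of the 9 genes overlap.

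Markers of other brain regions differed between the groups. Cortical neuron markers were high in both groups, with Slc17a7, the vesicular glutamate transporter of cortical excitatory neurons, at 1955 and 1906 CPM. Of the 7 cortical neuron markers 1 was called (background 8.29%), Fezf2 of deep-layer neurons (41.5 against 63.1 CPM, log2 fold change 0.60), Cux2 (0.31) and Neurod6 (0.26) were higher by adjusted p alone (background 12.1%), and Tbr1 (-0.40) was lower (background 11.6%). All 6 oligodendrocyte markers were lower by adjusted p alone (background 11.6%), and 2 were called lower (background 4.09%), Mbp (-0.50) and Mobp (-0.52), with sums of 4285 to 5703 CPM in Control and 2872 to 5139 CPM in EtOH mice, where EtOH mouse 2 alone reached the Control range. All 10 striatum markers were called lower in EtOH mice (background 4.09%; sums of 989 to 2370 against 234 to 302 CPM) and all 7 hippocampus markers higher (background 4.20%; 28.4 to 36.0 against 136 to 179 CPM). Of 6 choroid plexus markers 5 were tested and 3 called higher (background 4.20%), with sums of 7.86 to 21.7 CPM in Control and 11.5 to 991 CPM in EtOH mice. Of 6 leptomeninges markers 1 was called higher (background 4.20%), Dcn (1.87), with sums of 36.0 to 50.9 and 30.4 to 101 CPM. Of 5 blood markers 0 were called (background 8.29%). Their sums were 9.18 to 128 CPM in Control and 9.74 to 74.1 CPM in EtOH mice, highest in Control mouse 6 and EtOH mouse 1. Total counts ranged from 31768079 to 42183031 per mouse. The part of these regions and of blood in the levels of the 9 genes was not tested. For a gene whose level differs between regions, the part of the regions cannot be told apart from treatment.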

How the data were processed

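Total RNA of mouse cortex was sequenced by BGI. The authors checked the reads with FastQC 0.11.9, used STAR for alignment to GRCm39 (annotation Gencode Release 28) and featureCounts for counting, and compared the groups with DESeq2. The strand and multi-mapping settings are not given in the sources used here. The authors deposited a table of raw counts per gene symbol without normalization, with values taken here to be expected counts and rounded to whole numbers, because 61 symbols hold values that are not whole. All 12 columns were matched to mice by name.

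Genes were kept with filterByExpr (16059 of 33024), scaled with TMM and compared with edgeR's quasi-likelihood test (R 4.3.3, edgeR 4.0.16, limma 3.58.1), with Benjamini-Hochberg adjustment over all genes tested. The thresholds, an adjusted p of 0.05 and a log2 fold change of 0.5, are those of the study. The standard error is the log2 fold change divided by the square root of F. CPM use TMM-scaled totals, and log2 CPM a prior count of 2. Single members were also compared by permutation, exact and two-sided, over the 792 possible splits of the mice (smallest possible p 0.00126). Positions and exon lengths are from a newer Gencode annotation of GRCm39, release M39. The test was checked on simulated data of 15901 genes, where it recovered 179 of 200 genes changed by 1 log2 unit, with 9 false calls. These changes were larger than those of the 9 members (log2 fold changes from -0.41 to 0.16), so the check does not measure the sensitivity for the members.

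Members, pathway lists and marker lists were chosen with earlier results of these data known. The rule named all 9 members, of each pathway list every called gene and otherwise the 3 most abundant, and the 8 genes most like the members. Other genes were named after their values were seen, among them those passing by adjusted p alone, Stat2, Irf9, Cgas, Sting1, Trex1 and Ifit3b. Alternatives were DESeq2 1.42.0, limma voom, other scaling factors, other filters on low counts (1 count in any mouse, 10 in every mouse), other fold change minimums, the replicate number as a block, and each mouse left out in turn.

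No pair of libraries of the same group agreed within sampling noise (chi-square per degree of freedom at least 7.84). Nothing in the labels says how the mice relate beyond their group, so the tests take the mice as independent. Their p-values compare groups that also differed in markers of brain regions, as described above, and do not separate this from treatment.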

Additional observations from a re-analysis of the deposited data

Results flagged for a closer look

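Total counts stood apart from the rest of the group in 2 mice. Control 5 had 40690226 counts, with the next highest Control mouse at 32356909, and EtOH 1 had 42183031, with the next highest EtOH mouse at 33313165. Of 20 groups of values examined in this way 2 stood out, where chance gives about 1; both are totals, and the 9 genes gave none. EtOH 1 is also the mouse whose removal moved Ifit3 past the threshold, as described above. Among EtOH mice it had the highest sums of border macrophage markers (10.4 CPM) and blood markers (74.1 CPM) as well. The part of these and of depth in the Ifit3 result was not tested.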

How the results depend on the processing

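Of 171 recomputed log2 fold changes of the 9 genes, 168 kept their direction and their side of the threshold. With the replicate block, Bst2 turned to -0.017 (adjusted p 0.962) and Rsad2 to 0.019 (adjusted p 0.968), both near 0; the replicate numbers do not pair the mice (correlations of same-numbered deviations -0.108 to 0.0182, 0 of 5 highest with their own number), and the block gave 690 genes higher and 634 lower. Leaving out 1 mouse at a time gave 0 to 1 members lower, the 1 being Ifit3 without EtOH 1, and 1 to 4 other interferon-stimulated genes lower (1 without EtOH 1; 4 without EtOH 2, where Herc6 and Xaf1 joined). It also gave 0 to 1 signalling genes higher (Socs3 without Control 7, which was also the 1 called with the replicate block, at 0.55) and 0 to 1 sensors lower (Myd88 without EtOH 1). With no fold change minimum, 4 other interferon-stimulated genes and 1 signalling gene were lower, 2 signalling genes higher, 3 sensors higher and 2 lower, and 1947 of all genes higher and 1863 lower, compared with 674 and 657 as reported; with a minimum of 1, 1 other interferon-stimulated gene (Slfn2) was lower, and 242 of all genes higher and 282 lower. These follow from the threshold itself; the cause of the other changes was not tested. DESeq2 gave 702 and 688, and limma voom 676 and 643. Among genes that passed by adjusted p alone, the replicate block lost Herc6 (0.0526), Ifnar1 (0.0866), Mavs (0.109) and Ticam1 (0.0632), and the filter of 1 count in any mouse, which tests more genes, lost Ifnar1 (0.0533), Tyk2 (0.0524) and Mavs (0.0622). Of 210 recomputed counts 194 stayed within 1.5 times. Usp18 had the lowest level of the 9 genes, at 14 to 37 counts per mouse, and how far depth limits each gene was not tested.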

Other observations

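Counts of low genes were even more often than odd. Irf7 had an even count in 12 of 12 mice, Ifit1 in 11, Ifit3 in 10 and Rsad2 in 9, whereas Ifi27 and Usp18 did in 4 each. Of the 2456 genes with a mean of 20 to 100 counts, 61.4% of values were even, where 50% would be if counts were free to be either, and 115 genes were even in all mice. Of the 7396 genes with a mean of 500 to 5000 counts, 50.9% were even. The cause was not tested.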
